A study of Rattus norvegicus with 8 samples.

Results

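Acute phase and reactive glia genes were followed in the lumbar spinal cord of stressed and control rats. The 10 genes were taken by symbol, with no measured value used: A2m, Serpina3n, Hp, Lcn2, Cp, Fn1, Hmox1, Apoe, Clu and Ttr, of the 26514 gene names that the array carries outside its control spots. All 10 were found, on 14 probes and 42 spots, and all 14 probes passed the filter on dim probes. Male Wistar rats, 12 weeks old, were placed on a platform surrounded by water in daily sessions for 10 days, the water avoidance (WA) stress (n = 4), or were handled as controls (n = 4). The cord was taken 24 h after the last session. It was flushed out of the spine with saline and the meninges were stripped before the L6S1 segments were cut, and each rat gave 1 single-colour Agilent array.

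Acute phase proteins are plasma proteins whose output changes in inflammation, mostly in the liver, under interleukin 6 type cytokines that signal through gp130 (Il6st), Jak kinases and Stat3, and under NF-kB and C/EBP factors. Several are also made inside the central nervous system, where astrocytes that react to injury or inflammation raise genes such as Serpina3n and Lcn2 together with Gfap. Others among the 10 genes (Apoe, Clu) are made by astrocytes at high levels at all times, and others (Fn1, Ttr) are known from the meninges, vessels and choroid plexus.

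The members were read by probes of 60 bases. The first 30 bases of 9 of them are shown, 5′ to 3′, because the results turn on these: the members whose groups did not overlap (Lcn2, Clu), a member whose call turned on 1 control array (Hmox1), and the members that varied together between rats (A2m, Fn1, Cp).
Lcn2: caatgcattgacaactgaacagacggtgag
Clu: actctgaccccatcacagtggtgttaccag
Hmox1: gcgatgggtcctcacactcagtttcctgtt
A2m: gatattccaataagagacctgaagccagcc
Fn1, probe 1: tatctttctcttacctgttatttatcaatt
Fn1, probe 2: gaccaggttgatgacacttccattgttgtt
Cp, probe 1: ctttgcccctcaaaagctatattctaaatt
Cp, probe 2: gttgaaggatgctctcggaaaatagagaaa
Cp, probe 3: tcaatacataccccgatcaccctgagaaag

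The files place these probes on the rn4 assembly. Lcn2 lies at chr3:11511592-11511651 on the minus strand, Clu at chr15:45404688-45404747 on the plus strand and Hmox1 at chr19:13969336-13969395 on the plus strand. The brighter A2m probe lies at chr4:158152445-158152504 on the plus strand, and a further A2m probe starts 904 bases downstream of it. The Fn1 probes lie on the minus strand at chr9:70702316-70702375 and chr9:70745666-70745725. The Cp probes lie on the plus strand at chr2:105148774-105148833, chr2:105135264-105135323 and chr2:105129670-105129729. The file describes the first of them as GPI-anchored ceruloplasmin, the form held on the cell surface, and the other Cp probes as ceruloplasmin. Whether a probe lies in an exon or a UTR was not analysed here.

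Levels are given as log2 processed signal minus the log2 of the 75th percentile of the same array, so that 0 is the level of that percentile and a step of 1 is a doubling. They are compared between arrays at 1 probe and not between probes. All member probes were well above background on all 8 arrays except Fn1 probe 2, which was so on 4 control and 3 stressed arrays, and none was saturated. One array labelled control stood apart. Control replicate 2 lay at 45.8 on the first principal component of all tested probes, which held 54.2% of the variance, against -56.4 to -39.6 for the other controls and 8.49 to 34.9 for the stressed rats. Its signal at the 5′-most relative to the 3′-most probe of a gene was also on the side of the stressed arrays, at 0.19 against -0.27 to -0.16 in the other controls and 0.09 to 0.16 in stressed rats. Its mean correlation with the stressed arrays, 0.989, was above that with the other controls, 0.980. On these measures it resembled the stressed arrays. With it counted as a control, the groups still did not overlap at 12.1% of all tested probes. Whether the label of this array is right was not tested. The differences and calls of the members, and their correlations with each other and with the marker lists, were therefore also computed without it. All arrays were on 1 slide, with the stressed rats in one row and the controls in the other, so that stress and slide row cannot be told apart. As the tissue is whole cord, fewer cells of a type and less RNA per cell cannot be told apart either.

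None of the 10 members differed between stressed and control rats at a false discovery rate (FDR) below 0.1 or below 0.05. The test was limma with Benjamini-Hochberg adjustment over all 23678 tested probes, of which 3.68% were called at FDR below 0.1, 2.83% higher and 0.857% lower in stressed rats. At unadjusted p below 0.05, Lcn2 and Clu were lower in stressed rats and no member was higher. Of all tested probes 20.3% passed this unadjusted threshold, 14.1% higher and 6.23% lower. With normexp background correction neither Lcn2 nor Clu passed it (limma unadjusted p = 0.136 and 0.0509). The groups did not overlap at these same members, 2 of the 14 member probes, against 12.1% of all tested probes. By its brightest probe, 8 of the 10 genes had a negative and 2 a positive log2 difference, with a median of -0.16, against 0.07 over all tested probes, of which 39.6% were negative. Over all 14 member probes 10 were negative and the median was -0.065. The median over genes was -0.10 without control replicate 3 and -0.088 with the 5′ to 3′ measure as a covariate. The lowest adjusted p of a member was 0.157.

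**Figure D1:**
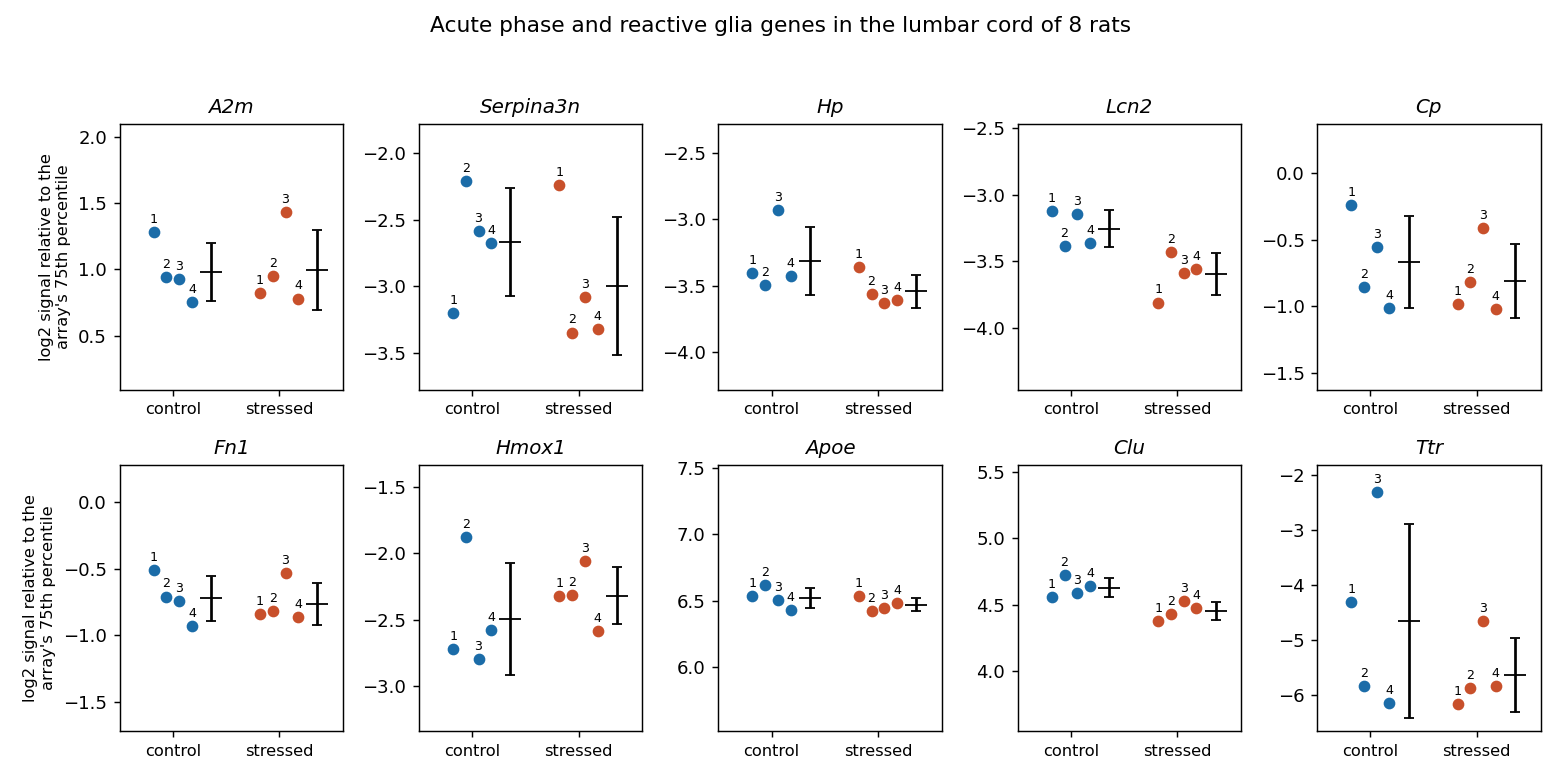
Log2 signal of the brightest probe of each of the 10 genes on the 75th percentile scale, for the control (blue) and stressed (red) rats, numbered by replicate. The bars are the mean and SD of 4 rats and each panel has its own range. Lcn2 and Clu are the genes whose groups do not overlap, and Ttr spans the widest range, from -6.17 to -2.30.

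Among the inducible astrocyte and acute phase genes, Lcn2 had the smallest p. Lcn2 encodes lipocalin 2, which binds iron-loaded siderophores and which reactive astrocytes and neutrophils release. In control rats 1 to 4 it read -3.12, -3.39, -3.15 and -3.36, and in stressed rats -3.81, -3.43, -3.59 and -3.56. Every stressed rat was below every control rat, although control replicate 2 and stressed replicate 2 nearly met. The difference was -0.34 ± 0.11 (SE, n = 4 against 4, 95% confidence interval -0.59 to -0.09), a stressed level 0.789 times that of controls, with an adjusted p of 0.157 in limma. An exact two-sided permutation test gave p = 0.0286, the smallest that 4 against 4 rats allow. Without control replicate 2 the difference was -0.39 and passed the threshold (limma adjusted p = 0.0318), in a fit in which 42.3% of all tested probes were called. Over the 8 arrays Lcn2 had r = -0.80 with the 5′ to 3′ measure and -0.77 with the first principal component. With that measure as a covariate its difference was -0.20 (limma unadjusted p = 0.154, adjusted p = 0.389).

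Serpina3n, a serine protease inhibitor that is among the strongest markers of reactive astrocytes, varied within both groups. It read -3.20, -2.21, -2.59 and -2.68 in controls and -2.24, -3.35, -3.08 and -3.32 in stressed rats. Stressed replicate 1 lay beside the highest control, and control replicate 1 beside the lower stressed rats. The difference was -0.33 ± 0.29 (SE, limma adjusted p = 0.535), with an interval from -1.01 to 0.35. It was -0.18 without control replicate 2 and -0.58 without stressed replicate 1 (limma adjusted p = 0.325).

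Hp encodes haptoglobin, which binds free haemoglobin. Its values were -3.41, -3.50, -2.93 and -3.43 in controls and -3.36, -3.57, -3.63 and -3.61 in stressed rats. Control replicate 3 was high and stressed replicate 1 lay above 3 of the controls. The difference was -0.23 ± 0.14 (SE, limma adjusted p = 0.372), and -0.099 without control replicate 3.

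Hmox1, haem oxygenase 1, breaks down haem and is induced by haem and oxidative stress. Over its 10 spots, of which 1 was flagged and left out in each of control replicates 3 and 4, it read -2.72, -1.88, -2.80 and -2.58 in controls and -2.32, -2.31, -2.06 and -2.58 in stressed rats. The highest value of all 8 rats was control replicate 2, and the other controls reached at most -2.58, the level of the lowest stressed rat. With all arrays the difference was 0.17 ± 0.21 (SE, limma adjusted p = 0.653). Without control replicate 2 it was 0.38 ± 0.13 (SE), past the threshold at an adjusted p of 0.0566 in limma. In that fit 42.3% of all tested probes were called. With the 5′ to 3′ measure as a covariate the difference of Hmox1 was -0.34.

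Apoe and Clu are apolipoproteins that astrocytes secrete, Apoe as the main lipid carrier of the nervous tissue and Clu (clusterin) as an extracellular chaperone. Apoe was the steadiest member, at 6.53, 6.62, 6.51 and 6.43 in controls and 6.54, 6.42, 6.44 and 6.48 in stressed rats. Its highest array was 1.14 times its lowest, an SD over the 8 arrays that only 3.25% of tested probes undercut. The difference was -0.05 ± 0.07 (SE, 95% confidence interval -0.21 to 0.11, limma adjusted p = 0.693).

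Clu read 4.56, 4.72, 4.59 and 4.64 in controls and 4.37, 4.43, 4.53 and 4.47 in stressed rats over its 10 spots. All 4 stressed rats lay below all controls, with stressed replicate 3 just under control replicate 1. The difference was small, -0.17 ± 0.07 (SE, 95% confidence interval -0.34 to -0.01), a stressed level 0.886 times that of controls, and its adjusted p in limma was 0.225. Without control replicate 2 it was -0.14, with an adjusted p of 0.110.

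**Figure D2:**
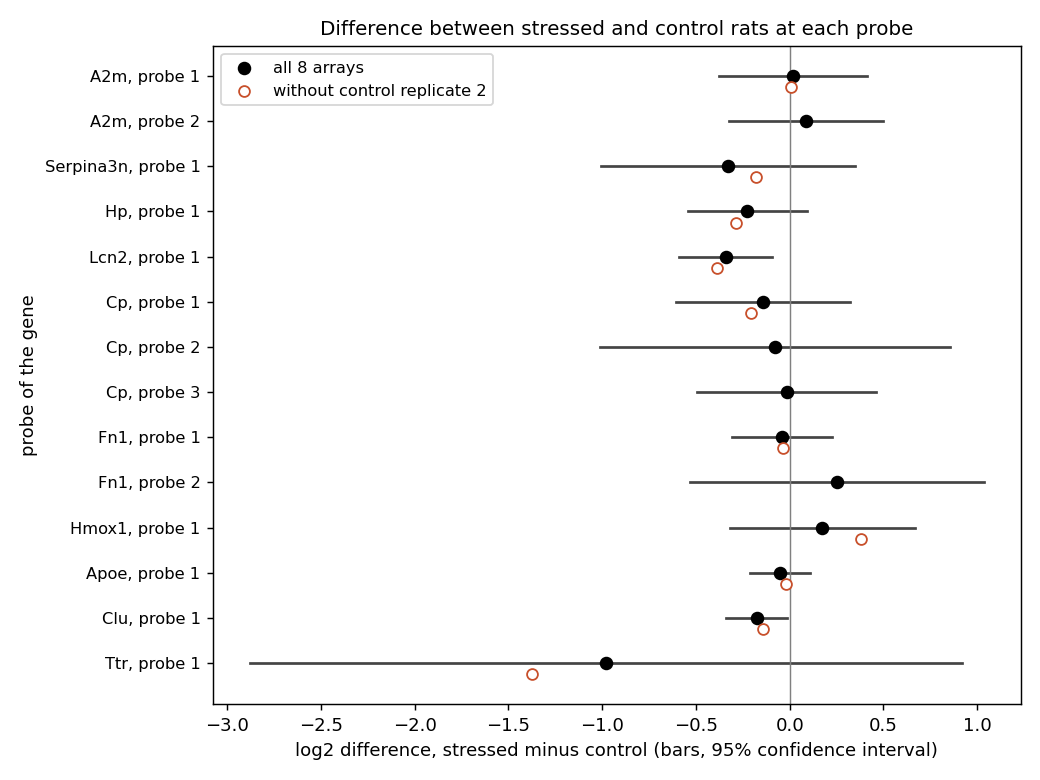
Log2 difference of stressed minus control rats at each of the 14 member probes (black points, with the 95% confidence interval of the limma fit on all 8 arrays) and at the brightest probe of each gene without control replicate 2 (open red points). The intervals of Lcn2 and Clu leave out 0 before adjustment, and Hmox1 moves from 0.17 to 0.38 when the array is left out.

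A2m, Cp and Fn1 gave no difference between the groups but varied together from rat to rat. A2m encodes alpha-2-macroglobulin, a broad protease trap and the classic acute phase protein of the rat. It read 1.28, 0.95, 0.93 and 0.76 in controls and 0.82, 0.95, 1.43 and 0.78 in stressed rats. Stressed replicate 3 and control replicate 1 were the highest, 1 from each group. The difference was 0.02 ± 0.17 (SE, limma adjusted p = 0.960), and its direction turned under other scalings (-0.09 with median scaling, -0.01 with normexp background correction). The second A2m probe read 0.94, 0.72, 0.52 and 0.35 in controls and 0.62, 0.67, 1.13 and 0.45 in stressed rats, the same rats being high, with r = 0.95 between the probes over the 8 arrays.

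Cp encodes ceruloplasmin, a copper-carrying ferroxidase, which astrocytes hold on their surface in its GPI-anchored form. The GPI-anchored probe read -0.24, -0.86, -0.55 and -1.02 in controls and -0.98, -0.82, -0.42 and -1.02 in stressed rats. Control replicate 1 and stressed replicate 3 were again the highest. The difference was -0.14 ± 0.20 (SE, limma adjusted p = 0.697). The probe 13510 bases upstream, described without the anchor, spread more widely, with -2.23, -3.03, -2.59 and -3.85 in controls and -3.55, -2.93, -2.20 and -3.34 in stressed rats. Its highest array was 3.14 times its lowest, against 1.72 times for the GPI-anchored probe. The third Cp probe read -4.60 to -4.03 in controls and -4.64 to -3.80 in stressed rats. The Cp probes followed each other over the 8 arrays with r from 0.87 to 0.94, and their differences were -0.14, -0.08 and -0.02.

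Fn1 encodes fibronectin, a matrix protein of meninges, vessel walls and the glial scar. Probe 1 read -0.51, -0.71, -0.75 and -0.93 in controls and -0.84, -0.82, -0.53 and -0.86 in stressed rats. Stressed replicate 3 stood out from its group and lay beside control replicate 1. The difference was -0.04 ± 0.12 (SE, limma adjusted p = 0.858), with a direction that turned with normexp background correction (0.01). Probe 2, 43350 bases away, was dim, with values of -6.50 to -5.79 in controls and -6.74 to -5.18 in stressed rats. It followed probe 1 with r = 0.37 only.

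The correlation over the 8 rats was computed for all 45 pairs of members, each with an exact permutation test over the 40320 orders of the rats. Of these, 3 pairs passed an FDR of 0.1. A2m and Fn1 had r = 0.95 (exact permutation p = 0.000794, adjusted p = 0.0357) and Spearman's rho = 0.90 (exact permutation p = 0.00456). Cp and Fn1 had r = 0.92 (exact p = 0.00203, adjusted p = 0.0458) and the same rho. A2m and Cp had r = 0.89 (exact p = 0.00491, adjusted p = 0.0737) and rho = 0.88 (exact p = 0.00724). With stressed replicate 3 and control replicate 1 left out, the 2 rats farthest from the median, r was 0.86, 0.70 and 0.75 over the other 6. After the group means were removed r was 0.97, 0.93 and 0.93, so the relation was present within the groups. It was 0.96, 0.95 and 0.89 without control replicate 2. The next pair by r, Hp and Ttr at 0.73, had rho = 0.05 and fell to r = 0.16 without control replicate 3 and stressed replicate 3.

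The genes most like these members over the 8 arrays, among 13358 gene symbols searched, were Cybrd1 (r = 0.98) and Id3 (0.98) for A2m, Timp1 (0.99) and Cybrd1 (0.98) for Fn1, and Slamf9 (0.98) and Bgn (0.98) for Cp. Cybrd1, a ferric reductase, was thus in the first 2 places for both A2m and Fn1. Timp1 encodes an inhibitor of matrix metalloproteinases and Bgn the matrix proteoglycan biglycan. These r values are the highest of a long search over 8 arrays and carry no test.

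Markers of cells from outside the cord also differed between the rats, and control replicate 1 and stressed replicate 3 were again the highest. Schwann cell markers, which belong to the spinal roots and not to the cord, gave summed levels (on a linear scale where 1 is the 75th percentile) of 70.1, 14.4, 19.3 and 6.84 in controls and 6.67, 8.59, 21.0 and 7.91 in stressed rats over 5 of 5 markers. The 8 meninges and fibroblast markers, all measured, summed to 9.40, 5.32, 6.15 and 3.07 in controls and 3.09, 4.78, 7.14 and 3.58 in stressed rats. Neither list had a called gene (limma, FDR below 0.1) or a gene at unadjusted p below 0.05. All 8 meningeal and all 5 Schwann cell markers had a negative difference, with medians of -0.34 and -1.02.

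The mean log2 level of each of the 13 marker lists was set against each of the 10 members, 130 relations in all, of which 6 passed an FDR of 0.1. Against the meninges and fibroblast list, Cp had r = 0.97 (exact permutation p = 0.000347, adjusted p = 0.0365, rho = 0.88, exact p = 0.00724). Fn1 had r = 0.91 (exact permutation p = 0.00126, adjusted p = 0.0411, rho = 0.90, exact p = 0.00456). Without control replicate 1 and stressed replicate 3 these were 0.92 and 0.80. The Schwann cell list followed the meningeal list over the 8 rats (r = 0.97, exact permutation p = 7.44e-05, rho = 0.98, exact p = 0.000397), so that it is nearly the same measure. Against it Cp had r = 0.91 (exact permutation p = 0.000843, adjusted p = 0.0365, rho = 0.90, exact p = 0.00456) and Fn1 had r = 0.92 (exact permutation p = 0.000744, adjusted p = 0.0365, rho = 0.95, exact p = 0.00114). Without those rats they were 0.78 and 0.93. Without control replicate 2, r with the meningeal list was 0.98 for Cp and 0.91 for Fn1, and with the Schwann cell list 0.96 and 0.92. A2m had r = 0.83 with the meningeal list, which missed the threshold (exact permutation p = 0.00779, adjusted p = 0.106, rho = 0.81, exact p = 0.0218). Its r with some other lists was of similar size. It was -0.84 with motor neurons (rho = -0.64) and -0.82 with ependyma (rho = -0.95), both at the same adjusted p of 0.106. Without control replicate 1 and stressed replicate 3 these were -0.20 and -0.89, against 0.81 with the meningeal list. With the Schwann cell list r was 0.80 (rho = 0.86, adjusted p = 0.118 from the same permutation test), and 0.85 without those rats. With red blood cells r was 0.80 (rho = 0.90, adjusted p = 0.161). The part of any listed cell type in the levels of A2m, Cp and Fn1 was not tested.

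**Figure D3:**
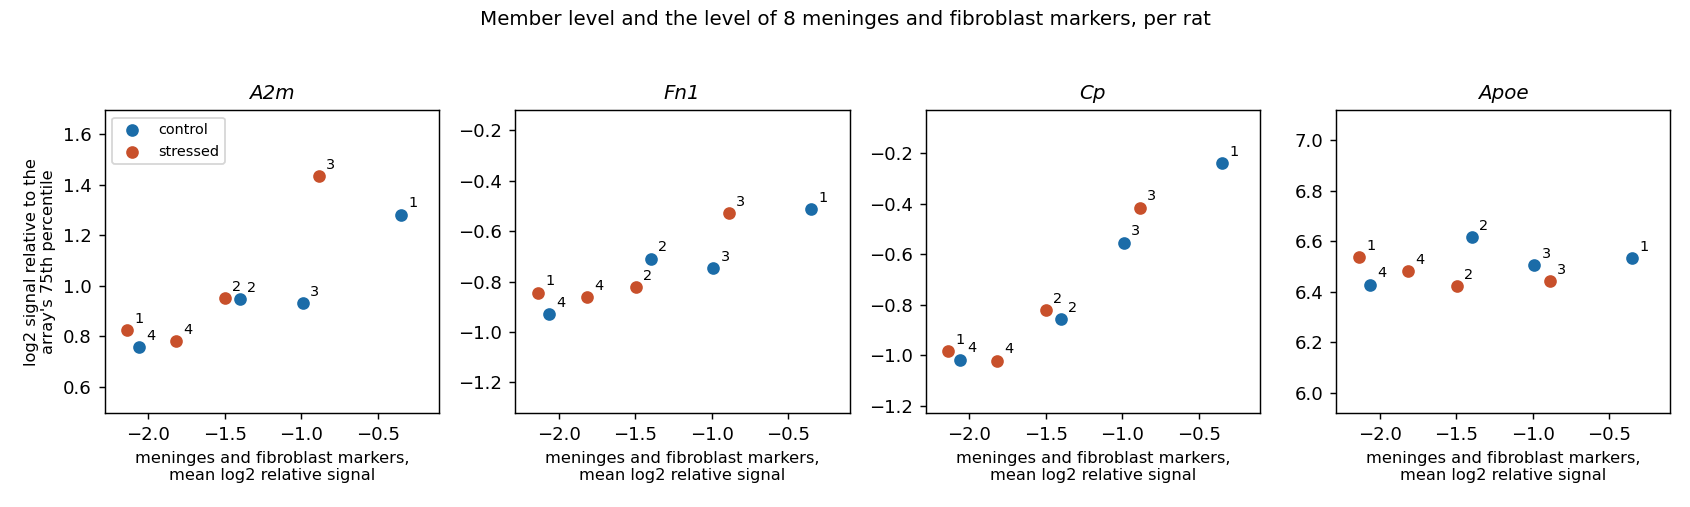
Log2 level of A2m, Fn1, Cp and, for comparison, Apoe (vertical axes, on the 75th percentile scale) against the mean log2 level of 8 meninges and fibroblast markers (horizontal axes) in each of the 8 rats, control in blue and stressed in red, numbered by replicate. A2m, Fn1 and Cp are highest in control replicate 1 and stressed replicate 3, where the markers are highest too, while Apoe stays between 6.42 and 6.62.

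The other relations that passed concerned Hmox1, which had r = 0.91 with the astrocyte list (exact permutation p = 0.00213, adjusted p = 0.0555, rho = 0.93, exact p = 0.00223). It was 0.94 without control replicate 2 and stressed replicate 3, 0.96 without control replicate 2 alone, and 0.99 after the group means were removed. Its relation to the choroid plexus list (r = 0.89, exact permutation p = 0.00280, adjusted p = 0.0607, rho = 0.81, exact p = 0.0218) fell to 0.59 without the same rats. The relation was not particular to astrocytes. Hmox1 had r = 0.85 with the oligodendrocyte list (adjusted p = 0.106 from the same permutation test), and 0.99 after the group means were removed. With the endothelial and microglia lists r was 0.87 and 0.83, which also missed the threshold. Over the 8 arrays Hmox1 also had r = 0.89 with the first principal component and 0.85 with the 5′ to 3′ measure given above. The genes most like it were Ptpre (r = 0.996), a receptor type tyrosine phosphatase, and Psmd9 (r = 0.993), a chaperone of proteasome assembly.

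Ttr, transthyretin, carries thyroid hormone and retinol and is made in the choroid plexus, which the lumbar cord does not contain. It was the most variable member, with an SD over the arrays above that of 99.5% of tested probes. It read -4.31, -5.84, -2.30 and -6.14 in controls and -6.17, -5.86, -4.64 and -5.83 in stressed rats. Control replicate 3 was the highest by far, with processed signals of 444 and 493 at its 2 spots, and its level was 14.6 times that of the lowest array. Control replicate 1 and stressed replicate 3 followed, and the other 5 rats lay between -6.17 and -5.83. The groups overlapped, and the difference of -0.98 ± 0.82 (SE, limma adjusted p = 0.512) had an interval from -2.88 to 0.92. Without control replicate 3 it was -0.20, while leaving out each of the other arrays in turn gave -1.48 to -0.80. With the 5′ to 3′ covariate it was 0.28. Of the 9 choroid plexus markers, 6 passed the filter and the defining Kl, Kcnj13 and Otx2 did not. The summed level of the 6 was 0.345 to 0.413 in controls and 0.338 to 0.391 in stressed rats, with 0.378 in control replicate 3. Ttr had r = -0.29 with the choroid plexus list. With the meninges and fibroblast list r was 0.70 (rho = 0.86, exact permutation p = 0.0458 for r, adjusted p = 0.248), short of the threshold. It was 0.90 without control replicates 1 and 3.

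The tested markers of neutrophils and hepatocytes, cells that make several of the members, summed to less than the level of the 75th percentile. Sums over different probes do not rank the cell types. Of 9 neutrophil markers 6 were measured, at summed levels of 0.153 to 0.199 in controls and 0.158 to 0.233 in stressed rats, and of 6 hepatocyte markers 2 were, at 0.0942 to 0.106 and 0.102 to 0.114. Red blood cell markers, 3 of 6 measured and led by Hbb, summed to 18.3 to 32.4 in controls and 16.4 to 39.7 in stressed rats. Astrocyte markers, 6 of 6 measured, summed to 51.3 to 61.5 and 57.3 to 75.5, with none called at FDR below 0.1. Their mean log2 level was 2.22 ± 0.22 in controls and 2.48 ± 0.12 in stressed rats (SD, n = 4). Gja1 (0.31, limma adjusted p = 0.115) did not overlap between the groups, which held for 12.1% of all tested probes. Without control replicate 2, 4 of the 6 astrocyte markers were called, against 42.3% of all tested probes. The mean of the oligodendrocyte markers was 4.11 ± 0.33 in controls and 4.62 ± 0.18 in stressed rats, and Mog was called higher (0.90, limma adjusted p = 0.0698). Of the endothelial markers Pecam1 was called higher (0.41, limma adjusted p = 0.0885), while Vwf lay at -0.31 (limma adjusted p = 0.241). These lists were not uniform. Positive and negative differences numbered 4 and 2 among astrocyte, 5 and 1 among oligodendrocyte, and 5 and 1 among endothelial markers. Microglia had no call, with list means of -0.33 ± 0.24 and -0.25 ± 0.15. The part of these cells in the levels of the members was not tested. Neuron markers, 5 of 6 measured, summed to 163 to 180 in controls and 163 to 197 in stressed rats.

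The wider pathway was read from 5 lists of genes. Among 32 other acute phase plasma proteins, 20 were tested and none was called (limma, FDR below 0.1), with a median difference of -0.09. Serpina1 (0.25, adjusted p = 0.183), alpha-1-antitrypsin, and Saa4 (0.30, adjusted p = 0.234), a serum amyloid A, were at unadjusted p below 0.05. These 2 of 20 genes stand against 20.3% of all tested probes at that threshold. The ends of this list were the haem carrier Hpx at 0.65 and Ahsg at 0.31, and the lectin Mbl1 at -0.41 and prothrombin (F2) at -0.40. Their adjusted p in limma was 0.384 to 0.559. Hpx, Mbl1 and F2 were dim, well above background on 5, 6 and 4 of the 8 arrays. Crp, Orm1 and the fibrinogen genes Fga, Fgb and Fgg did not pass the filter on dim probes.

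Of 30 inducers and regulators of the acute phase response, 25 were tested. One was called higher, the cytokine receptor kinase Jak1 (0.43, adjusted p = 0.0892), and 1 lower, the death receptor kinase Ripk1 (-0.43, adjusted p = 0.0896), whose second probe lay at -0.06 (adjusted p = 0.894). The highest differences of the list, Cebpa at 0.52 (adjusted p = 0.490) and Osmr at 0.44 (adjusted p = 0.334), did not pass the threshold. Both were dim, well above background on 7 of the 8 arrays. Il6st, which encodes gp130, lay at -0.41 (adjusted p = 0.149). Stat3 lay at -0.24 (adjusted p = 0.140), Ikbke at -0.31 and Cebpd at 0.31, each at unadjusted p below 0.05. In the list 2 genes were higher and 4 lower at that threshold, which 20.3% of all tested probes passed. Il6, the main inducer, did not pass the filter. The list's median was -0.04. Its calls numbered 8 of 25 without control replicate 2, against the 42.3% of all tested probes given above, and with any other array left out there was none.

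Of 30 genes of reactive astrocytes and the glial scar, 28 were tested and none was called (limma, FDR below 0.1). At unadjusted p below 0.05, 4 were higher and 1 lower, where 20.3% of all tested probes passed. The highest were Gfap, the intermediate filament of astrocytes, at 0.82 ± 0.43 (SE, limma adjusted p = 0.318), and the matrix protein Tnc at 0.71 (adjusted p = 0.139). The lowest were S100a10 at -0.29 and Steap4 at -0.37, but a second Steap4 probe lay at 0.28. Gfap read 0.26, 0.38 and 0.64 in control rats 1, 3 and 4 and 1.32, 1.77, 2.37 and 1.08 in stressed rats, and of the controls replicate 2 alone lay among the stressed rats. Without it the difference was 1.21 (adjusted p = 0.0227), and 8 genes of the list were called, 28.6% against the 42.3% of all tested probes. In the same fits the reactive astrocyte genes Lcn2 and Serpina3n had negative differences.

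Of 25 genes of haem and iron handling and the Nrf2 response, 24 were tested. Nqo1, a quinone reductase and a target of Nrf2, was called higher (0.42 ± 0.09, SE, adjusted p = 0.0725). Txnrd1 was the next highest at 0.38, and Tfrc, the transferrin receptor, and Aco1 were the lowest at -0.33 and -0.23, but a second Tfrc probe lay at 0.51 (adjusted p = 0.305). Blvra, which turns the biliverdin made by haem oxygenase into bilirubin, lay at 0.33 (adjusted p = 0.119) and the ferritin heavy chain Fth1 at 0.35 (adjusted p = 0.193). There were 9 calls without control replicate 2, 37.5% against 42.3% of all tested probes, and with any other array left out none.

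Of 30 receptors and partners of the member proteins, 26 were tested and none was called (limma, FDR below 0.1), with a median of -0.01. At unadjusted p below 0.05, 2 were higher and 4 lower, where 20.3% of all tested probes passed. Hpx lay at 0.65 (adjusted p = 0.384), and Cd163, the receptor for haptoglobin bound to haemoglobin, at -0.79 (adjusted p = 0.299). Without control replicate 2, 13 of the 26 genes of this list were called, against 42.3% of all tested probes.

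**Figure D4:**
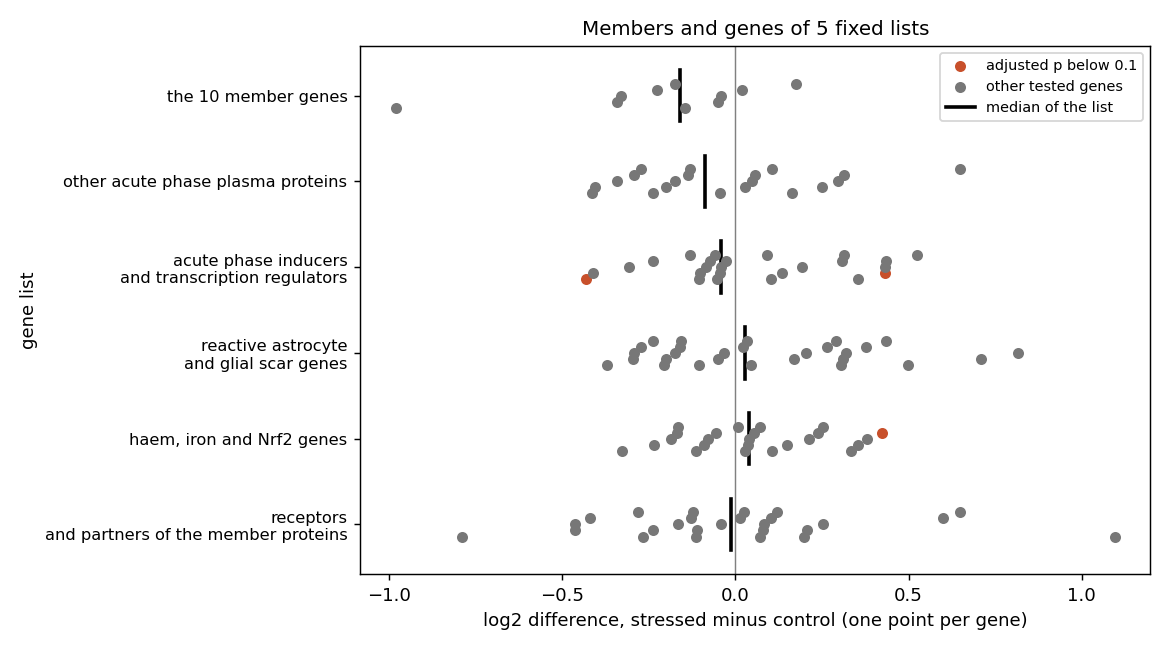
Log2 difference of stressed minus control rats for the brightest probe of each of the 10 members and of each tested gene of the 5 lists, with the list median as a black bar and genes at adjusted p below 0.1 in red. Jak1, Ripk1 and Nqo1 are the called genes, and no member is called.

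The other members had as their most similar genes over the 8 arrays Serpina11 (r = 0.95) and Fam113a (0.93) for Serpina3n, Styx (0.96) and Smptb (0.95) for Hp, and Rps19 (0.95) and Mei1 (0.94) for Lcn2. For Apoe they were Slit3 (0.98) and Abcf2 (0.96), for Clu Rab31 (0.98) and Actn1 (0.97), and for Ttr Sema4b (0.96) and Kcnh2 (0.92).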

How the data were processed

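The authors deposited the scanner output of each array and a table of processed values. Per the file headers, intensity values were background-subtracted and detrended by Agilent Feature Extraction 10.7.3.1, and the table holds the same signal rounded. The study names dChip, but its normalization and test are not given in the sources used here. Here control spots (4259) and outlier-flagged spots were left out, the log2 of the 75th percentile was taken off each array, and replicate spots were combined by their mean. Probes that were well above background on fewer than 4 arrays, whatever the group, were not tested. Groups were compared with limma 3.58.1 (R 4.3.3), without covariates, checked on simulated data. The brightest probe stands for a gene. The members and lists were chosen with earlier results of these data known. Named were all members, in each list the called genes and the 2 highest and 2 lowest, the 2 genes most like each member by r, and further list genes picked after their values were seen. Some genes that this rule names are not reported here. Alternatives were other background corrections, scalings, filters and variance models, array weights, a replicate block, a 5′ to 3′ covariate and each array left out. A marker score as covariate was added after seeing the data. Each array stands for 1 rat in the study's description, and the number of arrays limits the precision.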

Additional observations from a re-analysis of the deposited data

Results flagged for a closer look

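In each group of 4 rats the most extreme rat's gap to its nearest neighbour was divided by the range of the group, for the 14 member probes in both groups, and a ratio above the critical value of Dixon's test for 4 values marked a rat far from the others. Of 28 such groups 3 were marked, where chance gives about 1.4. Hp in control replicate 3 had a ratio of 0.842, at -2.93 against -3.50 to -3.41 in the other controls. Fn1 probe 1 in stressed replicate 3 had a ratio of 0.876, at -0.53 against -0.86 to -0.82 in the other stressed rats. This is the rat that was also high in A2m, Cp and the meninges and fibroblast markers. The dim Fn1 probe 2 in control replicate 4 had a ratio of 0.849, at -6.50 against -5.90 to -5.79.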

How the results depend on the processing

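Over the 20 alternatives, the count of member genes called at FDR below 0.1 stayed at 0 except with array weights (4: Hp -0.36, Lcn2 -0.36, Hmox1 0.38, Clu -0.16) and without control replicate 2 (2: Lcn2, Hmox1), so that leaving out 1 array gave 0 to 2. The same numbers hold for member probes. Of all 23678 tested probes, 11980 were called with array weights and 10015 (42.3%) without control replicate 2. Array weights gave control replicate 2 a weight of 0.107. Serpina3n, Hp, Lcn2, Apoe and Clu kept a negative difference in all 21 fits, Lcn2 from -0.53 to -0.20 and Clu from -0.29 to -0.14. Of 200 member differences under alternatives 12 turned. A2m was -0.010 with normexp and -0.092 with median scaling, and -0.13 to 0.12 with 1 array left out. Fn1 was 0.0094 with normexp, 0.11 as the mean of its probes, 0.051 with the meninges and fibroblast score as covariate, and -0.12 to 0.030 with 1 array left out. Cp was 0.061 and Ttr 0.28 with the 5′ to 3′ covariate, where Hmox1 was -0.34, and Cp was 0.040 with the meninges and fibroblast score. The causes were not tested. Median scaling moved the median of all tested probes by -0.11. With any array other than control replicate 2 left out, 0 to 88 of all tested probes were called. Replicate numbers share no stated origin and same-numbered rats correlated at -0.09 to 0.31, so the replicate block is an alternative only: 0 of all probes and 0 members were called with it. Members near background (Ttr, Fn1 probe 2) are limited by signal.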
